A study of Rattus norvegicus with 12 samples.

Results

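The genes described here serve lipid handling by pulmonary lipofibroblasts and the PTHrP and PPARG signals that act on these cells. They comprise Pparg, Plin2, Lpl, Cd36, Pth1r, Pthlh and Apoe, and were chosen by matching RefSeq accessions of the array's features to these symbols. Each of the 7 genes had 1 feature, out of 26208 features and 9621 named genes. The tissue was whole lung of Sprague-Dawley rat pups at postnatal days 4, 10 and 21. IUGR pups had been growth restricted before birth through a low protein diet, and control pups had not. Per the series design text there were 14 IUGR pups and 15 control pups, and RNA of 2 or 3 pups was pooled for each array. Every combination of diet and day had 2 one-colour arrays, 12 in all. The pups' sex, litters and the feeding scheme are not given in the sources used here, so pools may share litters, and the p-values measure spread between pools, which may be partly technical.

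Lipofibroblasts are lipid-laden interstitial cells of the growing alveolar wall that hold neutral lipid and pass it to alveolar type 2 cells for surfactant synthesis. PTHrP, released by the epithelium in response to stretch, acts on the PTH1R receptor of these fibroblasts and raises cyclic AMP, and the nuclear receptor PPARG then drives genes of lipid uptake and storage. PPARG and its target genes are also at the centre of the fat cell programme, in white as in brown fat.

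Levels are log2 of the deposited intensity, and differences are on the same log2 scale. Days 4 and 10 share 1 scale, with median intensities of 411 to 418 on their 8 arrays. Day 21 had been scaled apart, with medians of 270.1 to 278 on the 3 arrays used, and is described on its own. Replicate 2 of the day 21 control group was left out, because over features with NM accessions its Pearson r with the averaged earlier days was 0.0900, against 0.946 to 0.948 on the other day 21 arrays. Lung identity was clear on the arrays used: Sftpb, a surfactant protein gene of alveolar type 2 cells, measured 12.39 to 13.79, and Tcf21, a transcription factor gene of lung mesenchyme and lipofibroblasts, measured 11.30 to 12.43.

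Some pools also carried signal of brown fat. Ucp1, the uncoupling protein that defines brown fat, measured 7.91 and 12.02 in the day 4 IUGR pools against 8.79 and 8.0 in the day 4 control pools. At day 10 it measured 11.30 and 13.29 in IUGR pools against 7.71 and 9.15 in control pools. Both day 10 IUGR pools and replicate 2 of the day 4 IUGR group therefore stood above every control pool of these days. Of the 14 brown fat genes listed, 8 were measured, and their summed intensity was 2194 and 7397 in day 4 IUGR pools, against 2387 and 2102 in day 4 control pools. At day 10 those sums were 4700 and 14636 in IUGR pools and 1979 and 2400 in control pools. The sums include Ucp1 itself and so do not stand apart from it. In a limma fit with Ucp1 as a covariate, 4 of the other 7 genes rose with it at an unadjusted p under 0.05. The slopes of 3 others, Zic1, Adrb3 and Lhx8, were below 0, 1 of them at that level. Adipoq, the adipocyte hormone adiponectin, ran the same way, at 7.39 and 11.59 in day 4 IUGR pools against 8.10 and 8.12 in day 4 control pools. Cidea was not measured. Heart signal also differed between pools: Nppa, the atrial natriuretic peptide gene, was at 12.08 in replicate 2 of the day 4 IUGR group, its highest level on the 8 arrays of days 4 and 10. The summed intensity of 10 measured heart genes was 29513 and 75821 in day 4 IUGR pools against 38533 and 32164 in control pools. At day 10 it was 18694 and 40903 in IUGR pools against 13650 and 13555 in control pools. Replicate 2 of each IUGR group thus had the most brown fat and heart signal of its day. Leaving these pools out, or fitting Ucp1 as a covariate, cannot separate the 2 signals. Most genes described here, the members, are also fat cell genes. For the members, fits without replicate 2 of both IUGR groups or with Ucp1 as a covariate are therefore added below. They are given wherever the sign or the call of a difference depends on them. For genes of the other lists such fits are not given, so whether their signs or calls depend on these pools is not shown.

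No member passed the threshold in any comparison of IUGR with control lungs. The threshold was a Benjamini-Hochberg adjusted p of 0.05 over all features in limma. At day 4, 0% of features passed it and 9.59% (2514) had an unadjusted p under 0.05, among them 1 of the 7 members, Pthlh. At day 10, 0% passed and 7.99% (2095) had an unadjusted p under 0.05, and Apoe was the 1 member among them. Averaged over both days, 0% passed and 10.3% (2689) had an unadjusted p under 0.05, and the members among these were Pthlh and Apoe. For the difference between the day 10 and the day 4 effect, 0% passed and 7.38% (1933) had an unadjusted p under 0.05, with Cd36 and Apoe among them. Between days 4 and 10, in contrast, Apoe rose in both diet groups and Pthlh fell in IUGR lungs.

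**Figure D1:**
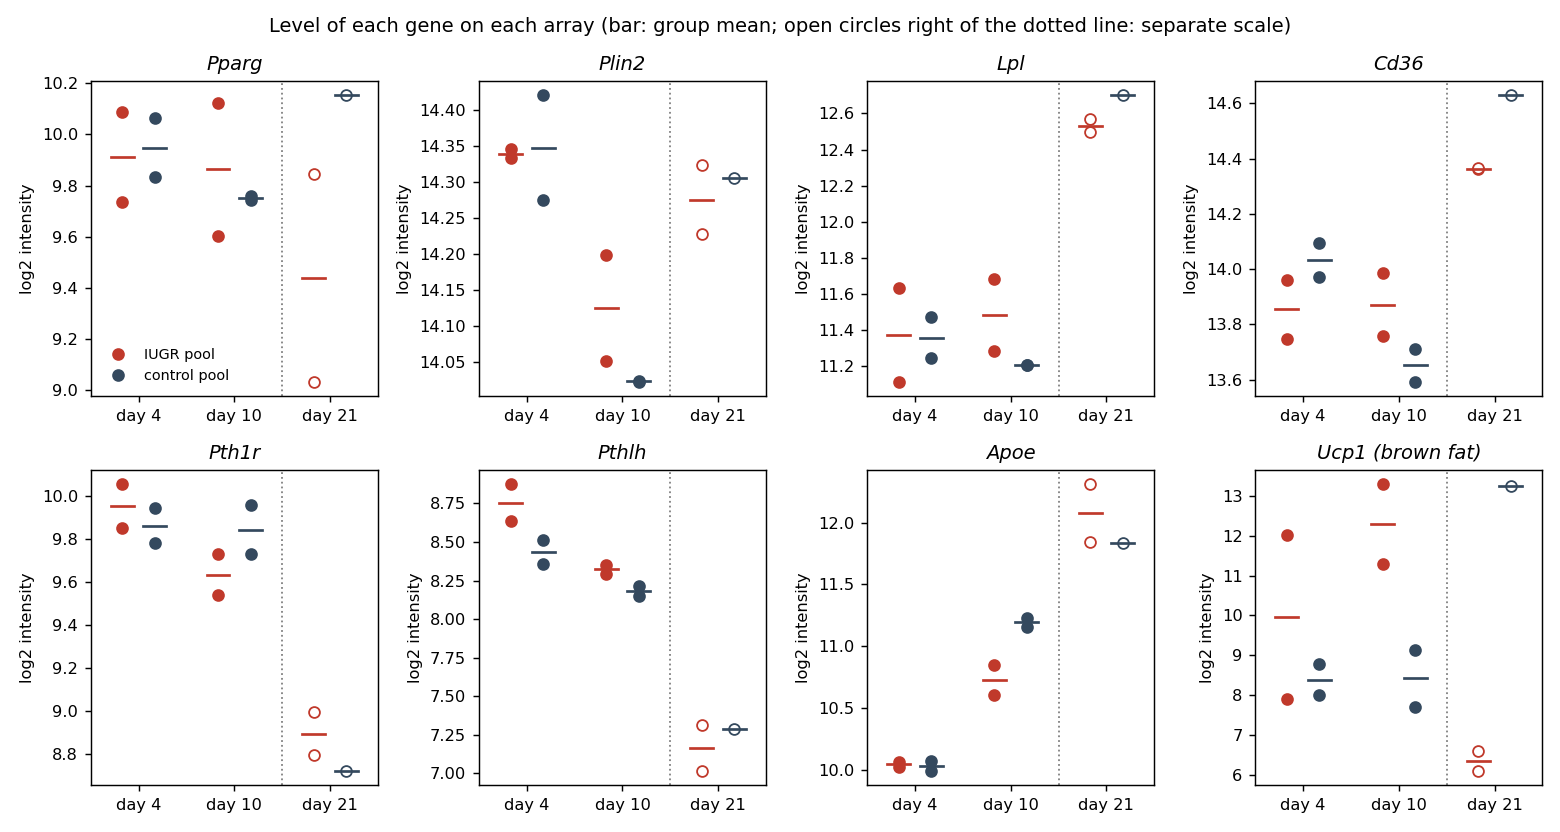
Log2 intensity of the 7 genes and of Ucp1 on each array by postnatal day, IUGR pools in red and control pools in dark blue, with a bar at each group's mean. Open circles right of the dotted line are day 21, on a scale of its own. Apoe was near 10 on all 4 day 4 arrays and between 10.60 and 11.23 on the day 10 arrays, with both IUGR pools below both control pools, and Ucp1 ranged from 7.71 to 13.29 over days 4 and 10.

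Pparg, the nuclear receptor that drives the lipid storage programme, had overlapping levels in both diets on both days. It measured 9.73 and 10.09 in day 4 IUGR pools against 10.06 and 9.83 in day 4 control pools. Its day 10 levels were 9.60 and 10.12 in IUGR pools against 9.75 and 9.76 in control pools. Both IUGR groups had 1 pool above and 1 pool below the mean of their controls, and in both the higher pool was replicate 2, the one with more Ucp1. The difference, IUGR minus control, was -0.04 ± 0.19 at day 4 (SE, limma adjusted p = 0.963) and 0.11 ± 0.19 at day 10 (adjusted p = 0.934). The 95% interval at day 10 ran from -0.32 to 0.54. Without replicate 2 of both IUGR groups the day 10 difference was -0.15, and with Ucp1 as a covariate it was -0.33 (adjusted p = 0.591). Its sign thus depended on the pools with the most brown fat and heart signal. Between days, day 10 minus day 4 was -0.05 ± 0.19 in IUGR lungs and -0.20 ± 0.19 in control lungs, neither past the threshold.

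Over the 8 arrays, the slope of Pparg on Ucp1 in the fit with that covariate was 0.114 ± 0.036 log2 units per log2 unit of Ucp1 (SE), with an unadjusted p of 0.0148 and a limma adjusted p of 0.256. Adiponectin (Adipoq) had a slope of 0.951 (adjusted p = 0.0197). Slopes past the adjusted threshold were found for 0.0687% of features. No member of the 7 was among them, and Pparg and Lpl were the members with an unadjusted p under 0.05, a level reached by 13.3% of features.

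Of 21 listed partners and coregulators of PPARG, 13 were measured, and none passed the adjusted threshold in a comparison of IUGR with control lungs. At day 4, 2 of the 13 were higher at an unadjusted p under 0.05. Ppargc1a, a coactivator of mitochondrial genes, measured 10.36 and 10.64 in IUGR pools against 10.15 and 10.29 in control pools (0.28 ± 0.11, adjusted p = 0.491). Cebpd, a transcription factor that acts early in fat cell formation, measured 8.16 and 8.68 in IUGR pools against 8.03 and 7.92 in control pools (0.45 ± 0.19, adjusted p = 0.514). For both genes the 2 IUGR pools lay above both control pools. At day 10, Ncoa2, a steroid receptor coactivator, was lower at -0.26 ± 0.09 (unadjusted p = 0.0174, adjusted p = 0.522). The median difference over the 13 genes was 0.11 at day 4 and -0.09 at day 10, beside 0.0033 and -0.0084 over all features. Between days, 2 of the 13 passed in IUGR lungs: Ppard, a related receptor for fatty acids, fell by 0.49 ± 0.08 (adjusted p = 0.0127) and Klf5, an epithelial and adipogenic transcription factor, fell by 0.56 ± 0.15 (adjusted p = 0.0464). In control lungs the changes were -0.23 ± 0.08 for Ppard (adjusted p = 0.173) and -0.32 ± 0.15 for Klf5 (adjusted p = 0.275). None of the 13 passed there, with 1 lower at an unadjusted p under 0.05.

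Plin2, which coats the lipid droplets of lipofibroblasts, did not pass in a comparison of IUGR with control lungs. It stood between the 98.6 and 99.3 percentiles of its arrays, and whether differences between features this bright are compressed was not tested. It measured 14.35 and 14.33 in day 4 IUGR pools against 14.42 and 14.28 in day 4 control pools, so the groups overlapped. At day 10 it measured 14.05 and 14.20 in IUGR pools against 14.02 in each control pool, and both IUGR pools lay above. The difference was -0.01 ± 0.09 at day 4 (adjusted p = 0.983) and 0.10 ± 0.09 at day 10 (adjusted p = 0.850). The 95% interval of the day 10 difference was -0.11 to 0.31, and without replicate 2 of both IUGR groups the difference was 0.03. All 4 day 10 pools lay below all 4 day 4 pools. Day 10 minus day 4 was -0.22 ± 0.09 in IUGR lungs (adjusted p = 0.159) and -0.33 ± 0.09 in control lungs (adjusted p = 0.0900). Neither passed, and the control value had an adjusted p of 0.0344 when limma's prior spread was allowed to follow intensity.

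Lpl, the lipoprotein lipase that frees fatty acids from circulating triglyceride, measured 11.11 and 11.63 in day 4 IUGR pools against 11.25 and 11.47 in day 4 control pools. Levels at day 10 were 11.28 and 11.68 in IUGR pools against 11.21 in each control pool. The groups overlapped at day 4, and both IUGR pools lay above at day 10. The difference was 0.01 ± 0.19 at day 4 (adjusted p = 0.989) and 0.28 ± 0.19 at day 10 (adjusted p = 0.779, 95% interval -0.16 to 0.72). Replicate 2 of each IUGR group was the highest pool of its day. Without those pools the differences were -0.25 at day 4 and 0.08 at day 10, and with Ucp1 as a covariate they were -0.17 and -0.17. The slope of Lpl on Ucp1 was 0.116 ± 0.037 (unadjusted p = 0.0155, adjusted p = 0.261).

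Cd36, a membrane transporter of long-chain fatty acids, lay below control at day 4 and above it at day 10 in every pool. The nearest day 4 pools were at 13.96 (IUGR) and 13.97 (control). Cd36 stood between the 97.67 and 99.31 percentiles of its arrays, and whether differences are compressed at this brightness was not tested. It measured 13.75 and 13.96 in day 4 IUGR pools against 14.10 and 13.97 in day 4 control pools, with both IUGR pools below. Levels at day 10 were 13.76 and 13.98 in IUGR pools against 13.71 and 13.59 in control pools, with both IUGR pools above. The difference was -0.18 ± 0.12 at day 4 (adjusted p = 0.643) and 0.22 ± 0.12 at day 10 (adjusted p = 0.695). The day 10 effect minus the day 4 effect was 0.40 ± 0.16, with an unadjusted p of 0.0424 and an adjusted p of 0.661. With Ucp1 as a covariate the day 10 difference was 0.01 and the day 4 difference -0.26. The IUGR means were 13.87 at day 10 and 13.85 at day 4, which differ by 0.02 ± 0.12 (-0.11 with Ucp1 as a covariate), while the control means were 13.65 and 14.03, which differ by -0.38 ± 0.12 (adjusted p = 0.110). Without replicate 2 of both IUGR groups this control value was the same and its adjusted p was 0.0418, with an SE of 0.09.

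**Figure D2:**
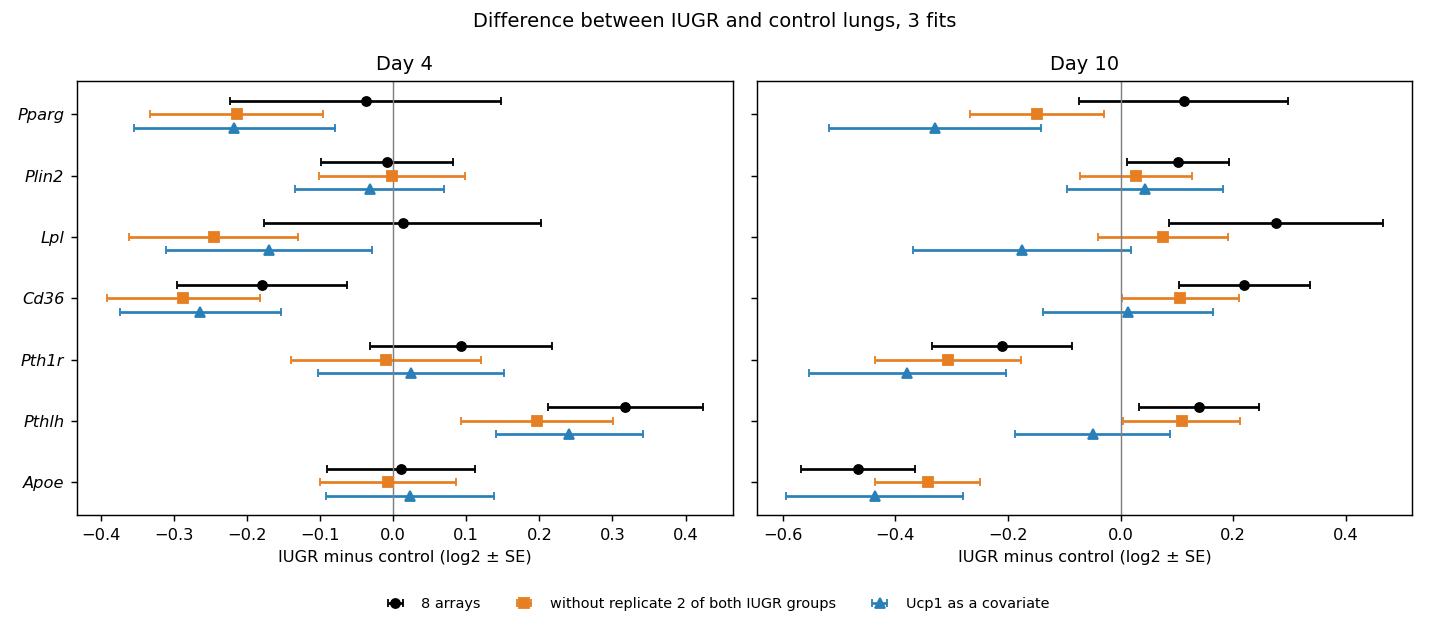
IUGR minus control (log2, bars are the SE) for the 7 genes at day 4 (left) and day 10 (right), from the fit of all 8 arrays, the fit without replicate 2 of both IUGR groups, and the fit with Ucp1 as a covariate. At day 10 Apoe was at -0.47, -0.34 and -0.44 in these fits, while Pparg was at 0.11, -0.15 and -0.33.

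Pthlh encodes PTHrP, the epithelial ligand, and was the member with the smallest p at day 4. It was also the dimmest member, between the 38.26 and 53.25 percentiles of its arrays. Whether levels this low lay above background was not tested. It measured 8.63 and 8.88 in day 4 IUGR pools against 8.52 and 8.36 in day 4 control pools. Its day 10 levels were 8.29 and 8.35 in IUGR pools against 8.21 and 8.15 in control pools. The IUGR pools lay above the control pools on both days. Non-overlapping pools were common on these arrays, with 37.5% of features at day 4 and 43.5% at day 10 lying all above or all below. Among the members, 2 of 7 did not overlap at day 4 (Pthlh above, Cd36 below). At day 10, 6 of 7 did not overlap, with Plin2, Lpl, Cd36 and Pthlh above and Pth1r and Apoe below. Some gaps were small: the nearest IUGR and control pools were at 9.731 and 9.732 for Pth1r and 14.05 and 14.02 for Plin2. For Apoe they were at 10.85 and 11.16. Whether 6 of 7 is unusual was not tested.

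The Pthlh difference was 0.32 ± 0.11 at day 4 (unadjusted p = 0.0178, adjusted p = 0.430), a ratio of 1.25. At day 10 it was 0.14 ± 0.11 (adjusted p = 0.806), and averaged over both days 0.23 ± 0.08 (unadjusted p = 0.0165, adjusted p = 0.418). Without replicate 2 of both IUGR groups the day 4 difference was 0.20, and with Ucp1 as a covariate it was 0.24. The day 10 difference was -0.05 with that covariate. In IUGR lungs Pthlh fell by 0.43 ± 0.11 between the ages (adjusted p = 0.0375), to a mean of 8.32 at day 10 against 8.76 at day 4. This call was lost when any of 7 of the 8 arrays was left out (adjusted p = 0.0563 to 0.169) and held only without replicate 1 of the day 4 IUGR group. It was also lost without replicate 2 of both IUGR groups (-0.34, adjusted p = 0.116) and with the replicate number as a block (adjusted p = 0.0598). In control lungs day 10 minus day 4 was -0.25 ± 0.11 (adjusted p = 0.223), and the 2 diets' changes differed by -0.18 ± 0.15 (adjusted p = 0.838).

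Pth1r, the receptor for PTHrP, measured 9.85 and 10.06 in day 4 IUGR pools against 9.94 and 9.78 in day 4 control pools, and these overlapped. Day 10 levels were 9.54 and 9.73 in IUGR pools against 9.96 and 9.73 in control pools. The higher IUGR pool and the lower control pool of day 10 were at the same level to 2 decimals. The difference was 0.09 ± 0.12 at day 4 (adjusted p = 0.841) and -0.21 ± 0.12 at day 10 (adjusted p = 0.734, 95% interval -0.50 to 0.08). Without replicate 2 of both IUGR groups the day 4 value was -0.0098, and with Ucp1 as a covariate the day 10 value was -0.38 (adjusted p = 0.508). Day 10 minus day 4 was -0.32 ± 0.12 in IUGR lungs (unadjusted p = 0.0335, adjusted p = 0.132) and -0.02 ± 0.12 in control lungs (adjusted p = 0.961).

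Of 15 listed genes of cyclic AMP and leptin signalling, 12 were measured, and none passed in any comparison of days 4 and 10. The list also holds Lep, Lepr and Pth2r, a ligand and receptors that are not effectors of PTH1R. Lepr, the receptor for leptin, a hormone that lipofibroblasts release, measured 8.07 and 8.39 in day 4 IUGR pools against 8.56 and 8.57 in day 4 control pools (-0.33 ± 0.12, unadjusted p = 0.0241, adjusted p = 0.451). Both IUGR pools lay below both control pools. At day 10 its difference was -0.18 ± 0.12 (adjusted p = 0.761). Creb1, a transcription factor activated through cyclic AMP, was at -0.18 ± 0.07 over both days (unadjusted p = 0.0287, adjusted p = 0.447). At unadjusted p under 0.05, 1 of the 12 was lower at day 4 (Lepr) and 1 higher at day 10 (Pth2r), and the medians were 0.0039 and -0.04.

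Apoe, the lipoprotein ligand that macrophages, lipofibroblasts and other cells secrete to carry cholesterol and lipid, was the member that changed most with age. It measured 10.85 and 10.60 in day 10 IUGR pools against 10.03 and 10.06 in day 4 IUGR pools. In control lungs it measured 11.16 and 11.23 at day 10 against 10.07 and 9.99 at day 4. It rose by 0.68 ± 0.10 in IUGR lungs (adjusted p = 0.00839), a ratio of 1.61, and by 1.16 ± 0.10 in control lungs (adjusted p = 0.00483), a ratio of 2.24. In IUGR lungs 13% of features passed this test and 29.8% had an unadjusted p under 0.05, and in control lungs 4.28% passed and 21.1% had such a p. With Pthlh, Apoe made 2 of 7 members that passed in IUGR lungs, and it was the 1 of 7 in control lungs. At unadjusted p under 0.05, 1 member was higher and 3 were lower at day 10 in each diet group. All day 10 pools lying above or all below the day 4 pools was seen for 54.2% of features in IUGR lungs and 58% in control lungs. The call in IUGR lungs was lost without replicate 1 of the day 10 IUGR group (0.56, adjusted p = 0.0536). The call in control lungs was lost without either day 10 control pool (adjusted p = 0.0511 without replicate 1 and 0.0825 without replicate 2) and without replicate 1 of the day 4 control group (adjusted p = 0.0600), where the rise was still 1.13 to 1.20.

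At day 4 the Apoe levels of all 4 pools lay between 9.99 and 10.07, and the difference was 0.01 ± 0.10 (adjusted p = 0.981), or -0.0070 without replicate 2 of both IUGR groups. At day 10 both IUGR pools lay below both control pools, and the difference was -0.47 ± 0.10, with an unadjusted p of 0.00183 and an adjusted p of 0.402, a ratio of 0.724. The day 10 effect minus the day 4 effect was -0.48 ± 0.14 (unadjusted p = 0.0106, adjusted p = 0.560). The day 10 difference was -0.34 without replicate 2 of both IUGR groups and -0.44 with Ucp1 as a covariate, and the slope of Apoe on Ucp1 was -0.0078 (adjusted p = 0.950). Macrophages are a main source of Apoe in many tissues, and the summed intensity of 11 measured macrophage genes out of 17 was 37282 and 35681 in day 10 IUGR pools against 39759 and 40752 in day 10 control pools. At day 4 those sums were 49180 and 48801 in IUGR pools against 47999 and 45906 in control pools. A sum weighs the brightest genes most, and the mean log2 level of these 11 genes overlapped at day 10. This mean was 10.035 and 10.068 in day 10 IUGR pools against 10.089 and 10.045 in day 10 control pools. The part of the macrophage signal in the Apoe differences was not tested. In whole lung, fewer cells of a type and less RNA per cell cannot be told apart.

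**Figure D3:**
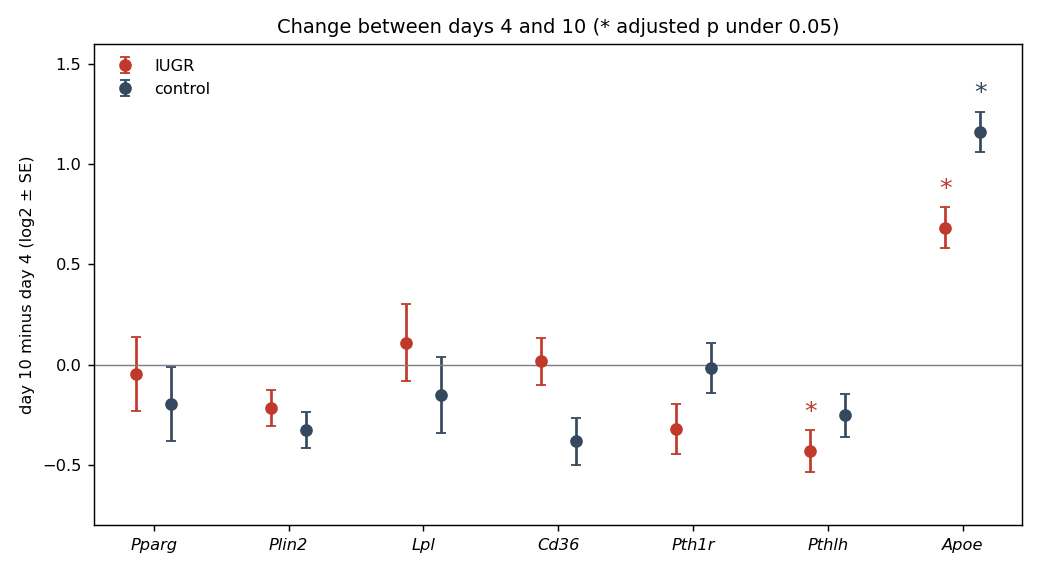
Day 10 minus day 4 (log2, bars are the SE) for the 7 genes in IUGR lungs (red) and control lungs (dark blue). Stars mark an adjusted p under 0.05, reached by Apoe at 0.68 and 1.16 and by Pthlh at -0.43 in IUGR lungs, and every Plin2 and Pthlh value lies below 0.

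Genes of cholesterol export and handling that work with APOE were listed too, and 10 of 12 were measured. Nr1h3 and Nr1h2 encode the LXR receptors, sterol sensors that induce Apoe and Abca1. At day 10 Nr1h3 measured 9.47 and 9.57 in IUGR pools against 9.82 and 9.79 in control pools (-0.28 ± 0.08, unadjusted p = 0.00836, adjusted p = 0.469). Nr1h2 measured 8.30 and 8.31 in IUGR pools against 8.67 and 8.60 in control pools (-0.33 ± 0.09, unadjusted p = 0.00799, adjusted p = 0.469). For both receptors the IUGR pools lay below the control pools, as they did for Apoe. Abca1, the cholesterol exporter that loads APOE with lipid, measured 11.30 and 11.23 in day 10 IUGR pools against 11.56 and 11.48 in day 10 control pools. Its day 10 difference was -0.25 ± 0.16 (limma unadjusted p = 0.153, adjusted p = 0.755). The day 4 difference was larger, at -0.48 ± 0.16 (unadjusted p = 0.0171, adjusted p = 0.424), while that of Apoe was 0.01 at day 4. Over both days Abca1 was at -0.37 ± 0.11 (unadjusted p = 0.0121, adjusted p = 0.410). At unadjusted p under 0.05, 2 of the 10 were lower and 1 was higher at day 10, and the median was -0.19.

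Between days, Abca1 rose by 0.89 ± 0.16 in IUGR lungs (adjusted p = 0.0142), and its change was 0.66 ± 0.16 in control lungs (adjusted p = 0.0620). Soat1, which esterifies cholesterol for storage, fell by 0.44 ± 0.11 in IUGR lungs (adjusted p = 0.0362), and Npc2, which moves cholesterol out of lysosomes, fell by 0.44 ± 0.10 there (adjusted p = 0.0291). Their values in control lungs were -0.42 ± 0.11 (adjusted p = 0.0750) and -0.39 ± 0.10 (adjusted p = 0.0678). Of the 10 genes, 1 rose and 2 fell past the threshold in IUGR lungs and none passed in control lungs, where 1 was higher and 2 were lower at an unadjusted p under 0.05.

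Apoc1, a small apolipoprotein carried on the same particles, lies next to Apoe in the gene order of assembly GRCr8, as does Tomm40 on the other side. Apoc1 measured 9.19 and 9.05 in day 10 IUGR pools against 9.52 and 9.47 in day 10 control pools (-0.38 ± 0.12, unadjusted p = 0.0118, adjusted p = 0.483), and the IUGR pools lay below. It rose by 0.55 ± 0.12 between days 4 and 10 in control lungs (adjusted p = 0.0432), and its change was 0.13 ± 0.12 in IUGR lungs. Scarb1, the receptor that takes cholesterol from high density lipoprotein, measured 10.50 and 10.42 in day 10 IUGR pools against 10.92 and 10.85 in day 10 control pools (-0.42 ± 0.11, unadjusted p = 0.00457, adjusted p = 0.441). Lrp2, the endocytic receptor megalin, measured 9.91 and 9.99 in day 4 IUGR pools against 10.52 and 10.44 in day 4 control pools (-0.53 ± 0.08, unadjusted p = 0.000252, adjusted p = 0.267). These 3 belong to a list of fatty acid and lipoprotein uptake, of which 13 of 18 were measured, 0 passed at day 4 or day 10, and the medians were -0.04 and -0.13. At unadjusted p under 0.05, 1 of the 13 was lower at day 4, and 1 was higher and 2 were lower at day 10.

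The promoters of Apoe and Plin2 are shown because these 2 genes ran most oppositely among the members over the 8 arrays (Pearson r = -0.947, as a description over arrays that share age and diet groups). The sequences are RefSeq's on assembly GRCr8, from 250 bases before to 50 bases after an annotated start, 5′ to 3′ on the gene's strand. The capitals mark the GC box, GGGCGG or its reverse complement CCGCCC, the letters bound by SP family factors. The Apoe window is chr1:88484650-88484949 and the Plin2 window chr5:106228969-106229268, both on the minus strand. RefSeq's table holds 3 windows for Apoe and 2 for Plin2, and those shown were chosen after their GC boxes were seen. Of the others, 1 window of each gene holds no GC box, and the third Apoe window overlaps the one shown and holds the same 2 boxes.
Apoe: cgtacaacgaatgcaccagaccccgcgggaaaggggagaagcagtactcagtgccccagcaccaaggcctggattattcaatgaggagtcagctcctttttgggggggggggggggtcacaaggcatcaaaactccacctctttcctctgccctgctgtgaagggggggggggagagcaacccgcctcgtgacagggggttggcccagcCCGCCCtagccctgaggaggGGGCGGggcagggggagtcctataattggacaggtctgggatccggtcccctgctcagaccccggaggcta
Plin2: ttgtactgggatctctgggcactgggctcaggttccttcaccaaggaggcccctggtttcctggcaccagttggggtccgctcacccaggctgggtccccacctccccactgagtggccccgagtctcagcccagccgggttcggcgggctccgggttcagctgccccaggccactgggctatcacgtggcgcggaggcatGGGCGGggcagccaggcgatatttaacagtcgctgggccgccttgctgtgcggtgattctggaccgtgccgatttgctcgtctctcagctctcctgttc
GC boxes began 41 and 21 bases before the start in Apoe and 49 bases before it in Plin2. Over both strands, 33.1% of 33469 rat promoter windows held a GC box, and so did 5 of 9 windows of the 5 members that had one in the table. The PPAR element, which is AGGTCA repeated directly with 1 base between, was in 0 of those 9 windows and in 0.0538% of all windows, and its part AGGTCA was in 0 of 9 and in 16.2% of all. The cyclic AMP element TGACGTCA was in 0 of 9 and in 1.83% of all. These matches describe letters in these windows and nothing beyond them.

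Among listed lipid targets of PPARG, 21 of 26 were measured. The slope on Ucp1 was positive at an unadjusted p under 0.05 in 7 of the 21, a level reached by 13.3% of features in either direction, and 2 of the 7, Adipoq and Aqp7, passed the adjusted threshold. The other 14 did not reach that level, and 5 of them had slopes below 0, with a median slope of 0.042 over the 21. Replicate 2 of the IUGR group was the highest pool of its day on both days in 10 of the 21. At day 4, 2 of 21 were lower at an unadjusted p under 0.05, with a median difference of 0.18. At day 10, 6 of 21 were higher and 2 lower at an unadjusted p under 0.05, none passed after adjustment, and the median difference was 0.12. Fabp4, the fatty acid binding protein of fat cells, measured 11.96 and 13.93 in day 10 IUGR pools against 9.97 and 10.63 in day 10 control pools (2.64 ± 0.76, unadjusted p = 0.00884, adjusted p = 0.469). At day 4 it measured 11.35 and 13.50 in IUGR pools against 11.34 and 11.40 in control pools. Replicate 2 of each IUGR group was the highest pool of its day, as it was for Ucp1, Adipoq, Cidec and Gpd1.

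The 5 targets with slopes below 0 were Angptl4, Scd, G0s2, Fabp5 and Scd2. Fabp5, the epidermal fatty acid binding protein, measured 12.61 and 12.62 in day 10 IUGR pools against 12.34 and 12.33 in day 10 control pools (0.28 ± 0.09, unadjusted p = 0.0146, adjusted p = 0.511). Angptl4, a secreted inhibitor of LPL, measured 8.39 and 8.41 in day 10 IUGR pools against 8.92 and 8.68 in day 10 control pools (-0.40 ± 0.13, unadjusted p = 0.0153, adjusted p = 0.516). G0s2, an inhibitor of triglyceride breakdown, measured 11.80 and 11.71 in day 10 IUGR pools against 12.02 and 11.95 in day 10 control pools (-0.24 ± 0.09, adjusted p = 0.571). In Fabp5, Angptl4 and G0s2 the 2 IUGR pools of day 10 lay close together, but these genes were grouped here by their slopes below 0. The slopes were -0.012, -0.057 and -0.031 (limma unadjusted p = 0.673, 0.126 and 0.228). The part of fat signal in their differences was not tested. Of 8 listed lipid droplet coat genes only Abhd5 and Bscl2 were measured, and neither had an unadjusted p under 0.05 in a comparison of IUGR with control lungs.

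**Figure D4:**
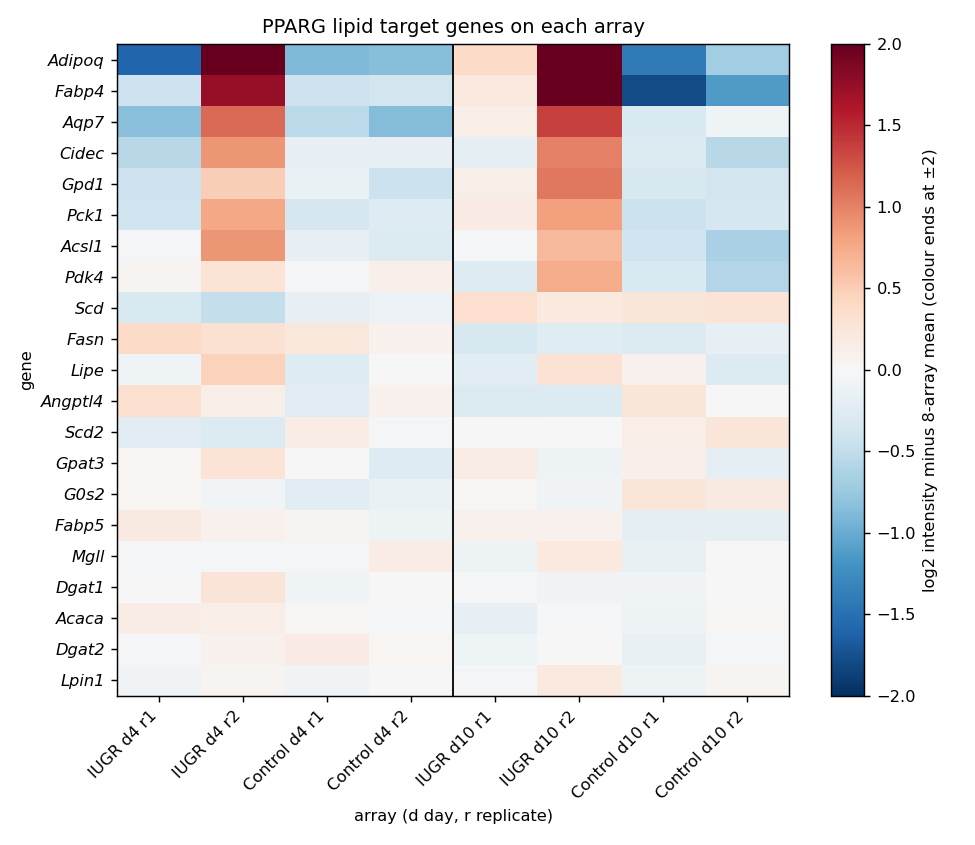
Log2 intensity of 21 listed PPARG lipid targets (rows) on the 8 arrays of days 4 and 10 (columns), each minus the gene's mean over the 8 arrays, with the colour scale ending at 2 in either direction. The fat cell genes in the upper rows are highest in replicate 2 of both IUGR groups, while Fabp5 and Angptl4 do not show that order.

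With age, Scd, which desaturates fatty acids, rose by 0.66 ± 0.09 in IUGR lungs (adjusted p = 0.00689), and its change was 0.40 ± 0.09 in control lungs (adjusted p = 0.0546). Fasn, the fatty acid synthase, fell by 0.62 ± 0.09 in IUGR lungs (adjusted p = 0.00839), with a change of -0.38 ± 0.09 in control lungs (adjusted p = 0.0637). Angptl4 fell by 0.50 ± 0.13 in IUGR lungs (adjusted p = 0.0445), and G0s2 rose by 0.39 ± 0.09 in control lungs (adjusted p = 0.0485). Of the 21 targets, 1 rose and 2 fell in IUGR lungs and 1 rose in control lungs.

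**Figure D5:**
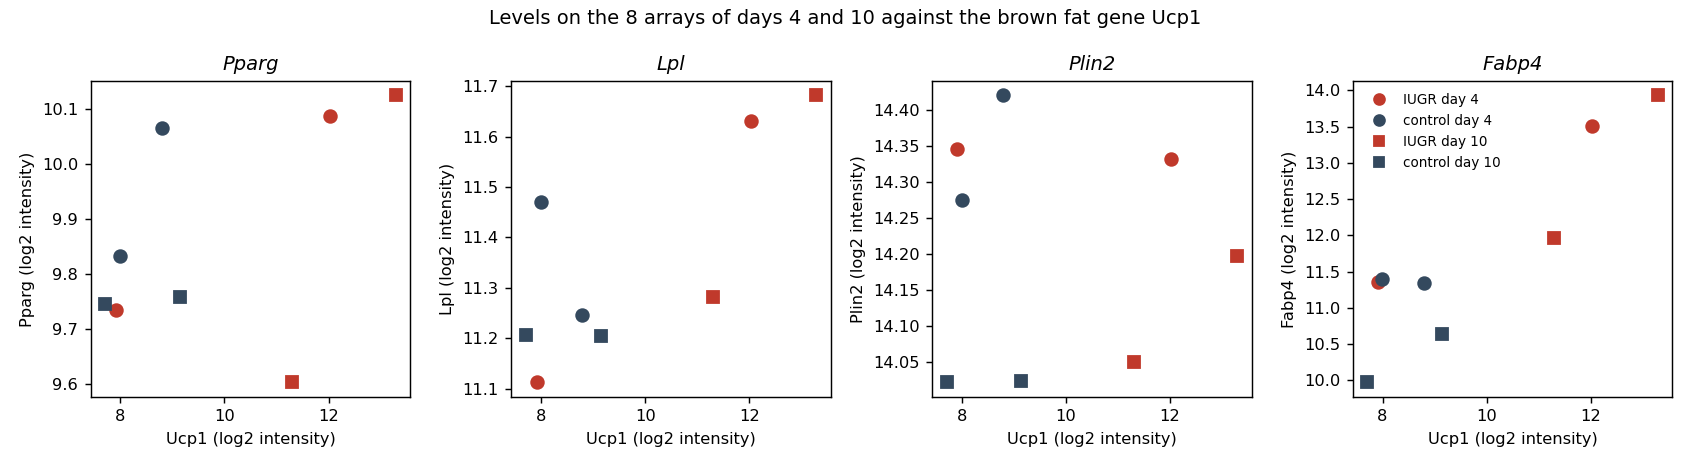
Log2 intensity of Pparg, Lpl, Plin2 and Fabp4 against that of Ucp1 on the 8 arrays of days 4 and 10 (circles day 4, squares day 10, red IUGR, dark blue control). The 2 arrays with Ucp1 at 12.02 and 13.29 had the highest Pparg, Lpl and Fabp4, whereas Plin2 on them was 14.33 and 14.20.

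Markers of lipofibroblasts and related alveolar fibroblasts were compared beside the members, and 12 of 18 were measured. None passed in a comparison of IUGR with control lungs. At unadjusted p under 0.05, 1 was lower at day 4, and 1 was higher and 2 were lower at day 10, with median differences of 0.02 and -0.09. Tcf21 measured 11.30 and 11.39 in day 10 IUGR pools against 11.61 and 11.57 in day 10 control pools (-0.24 ± 0.08, unadjusted p = 0.0152, adjusted p = 0.516). At day 4 it measured 11.51 and 11.55 in IUGR pools against 11.67 and 11.65 in control pools, and IUGR pools lay below on both days. Thy1, a surface glycoprotein that marks lipofibroblasts, measured 9.96 and 9.93 in day 4 IUGR pools against 10.35 and 10.16 in day 4 control pools. At day 10 it measured 9.84 and 10.02 in IUGR pools against 9.50 and 9.56 in control pools. It thus lay below control at day 4 and above it at day 10, and the day 10 effect minus the day 4 effect was 0.71 ± 0.14 (unadjusted p = 0.00119, adjusted p = 0.361). With age, Thy1 fell by 0.72 ± 0.10 in control lungs (adjusted p = 0.0154) and Gucy1a1, a nitric oxide receptor subunit, rose by 0.62 ± 0.14 there (adjusted p = 0.0472). These were 2 of the 12, and none of the 12 passed in IUGR lungs, where 3 were higher and 1 lower at an unadjusted p under 0.05.

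Each member's closest companions were sought over the 8 arrays of days 4 and 10 by Pearson r of log2 intensity, among all named genes. The 8 points share age and diet groups, and the r values are given as a description. Apoe was most like Net1 (r = 0.984), which encodes a RhoA exchange factor, followed by Vom1r72, Tff3, Septin4 and Atcay. Of these, Vom1r72 measured 7.56 to 7.74, Tff3 7.37 to 7.94 and Atcay 7.32 to 7.78, below every member on these arrays. Whether such levels lay above background was not tested. Plin2 was most like Wfs1 (0.990), a membrane protein of the endoplasmic reticulum, and Pthlh most like Aimp2 (0.981), a scaffold of tRNA synthetases. Pth1r was most like Cxadr (0.976), a junction protein, Cd36 most like Wdr70 (0.983) and Pparg most like Dnajc27 (0.958). Lpl was most like Eprs1 (0.974), a tRNA synthetase, and its 5 closest genes included Cidec (0.934), a lipid droplet protein of fat cells. Cidec measured 7.74 and 9.17 in day 4 IUGR pools and 8.12 and 8.12 in day 4 control pools. Among the members, Pparg and Cd36 had r = 0.783, Plin2 and Pthlh 0.790, and Lpl and Ucp1 0.758.

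Day 21 was read apart, with 2 IUGR pools and 1 control pool, so the spread comes from the IUGR pools alone. The control pool carried the brown fat signal: Ucp1 measured 6.12 and 6.60 in IUGR pools against 13.23 in the control pool. It was the 1 feature past the adjusted threshold (0.0099% of 10097 features, -6.88 ± 0.29, adjusted p = 0.0393). Fabp4 measured 10.38 and 10.77 in IUGR pools against 13.83 in the control pool. The diet comparison at this age therefore coincides with fat signal, and the 2 cannot be told apart with 1 control pool. Heart signal differed between the IUGR pools: the summed intensity of 10 measured heart genes was 13648 and 60224 in IUGR pools against 37180 in the control pool. Of these 10, the control pool lay between the IUGR pools in 5 and below both in 5, among them Nppa, at 9.59 and 13.51 in IUGR pools against 5.67 in the control pool.

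Of the 7 members none passed at day 21, and none had an unadjusted p under 0.05, a level reached by 5.46% of features. Pparg measured 9.84 and 9.03 in IUGR pools against 10.15 in the control pool (-0.71 ± 0.39, adjusted p = 0.9996). Lpl measured 12.57 and 12.50 in IUGR pools against 12.70 in the control pool, and Cd36 14.36 and 14.37 against 14.63. All 3 genes were lower in both IUGR pools. Plin2, at 14.32 and 14.23 in IUGR pools against 14.31 in the control pool, and Pthlh, at 7.31 and 7.02 against 7.29, overlapped. Pth1r measured 8.99 and 8.79 in IUGR pools against 8.72 in the control pool, and Apoe 12.31 and 11.84 against 11.84, with the lower Apoe pool at the control's level to 2 decimals. Leaving out either IUGR pool gave differences of 0.0066 and 0.48 for Apoe, 0.071 and 0.27 for Pth1r, and -1.12 and -0.31 for Pparg. In all, 5 of 7 members did not overlap, beside 63.4% of all features tested.

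At this age 10 of the 21 PPARG lipid targets were lower in IUGR pools at an unadjusted p under 0.05 and none was higher, with a median of -0.55. They included Fabp4 (-3.25 ± 0.27), Pck1 (-2.57 ± 0.23), a gene of glyceride synthesis in fat, and Gpd1 (-2.54 ± 0.26), which makes glycerol phosphate. In the brown fat list 3 of 8 measured genes, Ucp1 among them, were lower at that level. Lhx8 (0.10) and Otop1 (0.21) were higher without reaching it. The 7 members, by comparison, had a median of -0.12, and all features a median of 0.0017.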

How the data were processed

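Whole lungs of IUGR and control rat pups at postnatal days 4, 10 and 21 were measured on 12 one-colour Cy3 arrays, 2 per group. The authors deposited 1 linear intensity for each feature and array, made with RMA per the submitters' processing notes, which name no other step. Background settings, probe design and scan order are not given in the sources used here. The precision is limited by the number of arrays.

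Intensities were analysed as log2 values with no further normalisation and no pseudocount. Of 26208 features, 9731 matched 1 symbol through RefSeq accessions (unversioned, assembly GRCr8) and 16477 matched none. Moderated tests came from limma (version 3.58.1, R 4.3.3) and were adjusted by Benjamini-Hochberg over all features, with a threshold of 0.05. A single fit with a mean for every group took the 8 arrays of days 4 and 10, which left 4 residual degrees of freedom. Day 21 was fitted on the 10097 features with NM accessions, with 2 IUGR arrays and 1 control array. The 16111 XM features of that day were left out because they stood 28 places out of register with the other days. The left-out control array had a median of 726.5, and its values correlated with their own next value at 0.593.

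The members and 15 further gene lists (230 genes, 161 measured) were chosen with earlier results of these data known. Named genes are the members, the up to 4 genes with the smallest p per list and comparison, fixed fat and heart indicators, and the 5 genes most like each member. The genes Cidec and Gpd1 beside the day 4 and day 10 fat signal, and Sftpb as a check of the tissue, come from those lists. The likeness list of Cd36 is given by its first gene only. Promoter sequences and starts are RefSeq's on GRCr8, and 5 of 7 members had windows.

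Alternatives were quantile normalisation, median centring, leaving out the dimmest 30% of features, limma-trend, the replicate number as a block, each day fitted alone, each array left out in turn, replicate 2 of both IUGR groups left out, and Ucp1 as a covariate. The scripts were tested on simulated data.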

Additional observations from a re-analysis of the deposited data

Results flagged for a closer look

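For 4 members, IUGR minus control had opposite signs at day 10 and day 21 in every pool. Pools lying all above or all below were seen for 43.5% of features at day 10 and 63.4% at day 21. The share of features doing so in opposite directions on these 2 days was not counted. Whether 4 of 7 is unusual is therefore not known. Lpl was at -0.17 at day 21 and 0.28 at day 10, and Cd36 at -0.27 at day 21 and 0.22 at day 10. Pth1r was at 0.17 at day 21 and -0.21 at day 10, and Apoe at 0.24 at day 21 and -0.47 at day 10. Some gaps were small: without 1 or the other IUGR pool the day 21 difference was 0.0066 and 0.48 for Apoe and 0.071 and 0.27 for Pth1r, and the day 10 Pth1r pools nearest each other were at 9.731 in an IUGR pool and 9.732 in a control pool. The difference between these 2 days was not tested, since day 21 has 1 control pool and a scale of its own. Ucp1 measured 11.30 and 13.29 in day 10 IUGR pools against 7.71 and 9.15 in day 10 control pools, and 6.12 and 6.60 in day 21 IUGR pools against 13.23 in the day 21 control pool. The fat cell gene Fabp4 lay on opposite sides too, at 2.64 at day 10 and -3.25 at day 21. The part of this signal in the 4 differences was not tested.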

How the results depend on the processing

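The adjusted calls of Apoe between days 4 and 10 held under quantile normalisation, median centring, limma-trend, removal of the dimmest 30% of features, the replicate block, the omission of replicate 2 of both IUGR groups and Ucp1 as a covariate. Pthlh between days in IUGR lungs stayed at -0.43 but lost its call with limma-trend (adjusted p = 0.0577) and with the replicate block (adjusted p = 0.0598), and was -0.34 without replicate 2 of both IUGR groups. Deviations of same-numbered pools correlated weakly and in both directions (r = -0.23 to 0.19), with the highest r between the IUGR groups of days 4 and 10. The numbers were not used as pairs in the main fit. The block took the count of features that changed with age in control lungs to 729 against 1123. The causes of the changes below were not tested. Signs turned, for IUGR minus control, without replicate 2 of both IUGR groups in Lpl (-0.25), Pth1r (-0.0098) and Apoe (-0.0070) at day 4, in Pparg at day 10 (-0.15), and in Pparg (-0.18), Lpl (-0.085) and Cd36 (-0.090) averaged over both days. With Ucp1 as a covariate they turned in Lpl at day 4 (-0.17), in Pparg (-0.33), Lpl (-0.17) and Pthlh (-0.050) at day 10, in Pparg (-0.27), Lpl (-0.17) and Cd36 (-0.13) averaged, in Pparg (-0.11) and Lpl (-0.0049) for the day 10 minus the day 4 effect, and in Lpl (-0.16) and Cd36 (-0.11) for age in IUGR lungs. Plin2 at day 4 was 0.0029 with median centring, and Pth1r with age in control lungs 0.017 with quantile normalisation. Features past the threshold without replicate 2 of both IUGR groups numbered 60 at day 4, 29 averaged over both days, 11 for the difference of effects and 2997 for age in control lungs, which was 1911 with Ucp1 as a covariate. At day 4 limma-trend gave 1, and at day 21 quantile normalisation and median centring gave 0 against 1. Leaving out 1 array at a time, the counts ran from 0 to 644 at day 4, 0 to 2 at day 10, 0 to 166 averaged, 0 to 152 for the difference of effects, 7 to 2264 for age in control lungs and 504 to 4259 for age in IUGR lungs. Over the same omissions, Apoe changed with age by 1.12 to 1.20 in control lungs and by 0.56 to 0.81 in IUGR lungs, and Pthlh by -0.55 to -0.31 in IUGR lungs. IUGR minus control at day 4 ran from -0.21 to 0.14 for Pparg, -0.081 to 0.064 for Plin2, -0.25 to 0.27 for Lpl, -0.0098 to 0.19 for Pth1r and -0.029 to 0.050 for Apoe. For Pparg it ran from -0.15 to 0.37 at day 10 and -0.093 to 0.17 averaged, with -0.11 to 0.41 for the difference of effects, and for Cd36 from -0.037 to 0.076 averaged. Age in IUGR lungs ran from -0.31 to 0.21 for Pparg, -0.15 to 0.37 for Lpl and -0.096 to 0.13 for Cd36, and age in control lungs from -0.13 to 0.096 for Pth1r.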
